A study of Homo sapiens with 3 samples.

Results

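GAS5, ZFAS1, SNHG1, SNHG5, SNHG6, SNHG7, SNHG8, SNHG12, SNHG15 and SNHG16 are long noncoding RNA genes whose introns carry small nucleolar RNAs. These 10 genes were picked by name out of the 58735 genes with expression values, and all 10 were present. They were picked as host transcripts described as turned over by nonsense-mediated decay. The choice was made with earlier results of these data known, so counts over these genes are descriptions and test nothing. A snoRNA is cut out of an intron of its host and guides the chemical modification of ribosomal RNA, box C/D snoRNAs for methylation of the ribose and box H/ACA snoRNAs for pseudouridylation. The spliced host RNA that remains reaches the cytoplasm, where ribosomes meet an early stop codon and nonsense-mediated decay, which needs translation, removes it. Many hosts also begin with a run of pyrimidines, the terminal oligopyrimidine (TOP) start of ribosomal protein mRNAs. Neither translation nor RNA decay was measured in these libraries, so the name of the group is background and not a result.

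The study asked how inhibition of the chaperone HSP70 alters neuroendocrine prostate cancer cells, and measured RNA by sequencing in NCI-H660 (H660), a human line of that disease. The groups were parental H660 cells given the vehicle DMSO, parental H660 cells given 2.5 μM JG231 and parental H660 cells given 5 μM JG231, each for 24 h. JG231 is an allosteric inhibitor of HSP70. Each group had 1 library, so no spread between cultures could be computed and no p-value was given for any gene, and a single line stands for the disease. The paper speaks of 3 independent experiments in its figures, and if a library pools cultures is not known. RNA levels are FPKM, the fragments of a gene scaled to its transcript length and to the size of the library, as the authors deposited them. The sample records call the cells prostatic adenocarcinoma. Of the neuroendocrine markers examined, SYP, CHGA, ENO2, NCAM1 and INSM1 were each over 1 FPKM in DMSO, whereas of the luminal prostate markers KLK3, KLK2, TMPRSS2, FOLH1 and HOXB13 were each under it and KLK2 was listed at 0 in every library, though a 0 in these values need not mean absence. These are part of the markers chosen for the 2 types. CHGA had 46.0 FPKM in DMSO, 15.05 with 2.5 μM and 12.7 with 5 μM, and in the same order ENO2 had 37.0, 30.8 and 27.8, NCAM1 6.16, 4.82 and 3.40, SYP 17.7, 12.97 and 14.8 and INSM1 13.4, 16.3 and 10.5. INSM1 was thus higher than in DMSO at 2.5 μM, and the others named were lower at both doses. In RNA from bulk cells, fewer cells of a kind and less RNA per cell cannot be told apart. Of the markers of other cell types, 0 of 4 for fibroblasts and 0 of 3 for blood cells passed 1 FPKM in DMSO. Summed, the fibroblast markers had 0.84 FPKM in DMSO, 1.02 with 2.5 μM and 1.54 with 5 μM, where COL1A1 was the most abundant at 1.27, and the blood markers had 0.28 FPKM in DMSO and were listed at 0 with JG231. Of the 3 endothelial markers CDH5 alone did, with 4.92 FPKM in DMSO, 0.48 with 2.5 μM and 0.58 with 5 μM, and PECAM1 was listed at 0. The part of these marker changes in the results was not tested.

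The FPKM steps of genes with a single transcript gave about 16.1 M fragments in DMSO, 20.4 M at 2.5 μM and 24.1 M at 5 μM. Mitochondrial genes took 39.8% of the FPKM sum in DMSO, 24.1% with 2.5 μM and 28.8% with 5 μM. The depth and the mitochondrial share thus moved with treatment, and the part of the depth in the results below was not tested. Changes are log2((FPKM with JG231 + 0.1)/(FPKM in DMSO + 0.1)), a scale that understates the change of low genes. Intervals are 95% exact intervals that cover counting error only and take each fragment as independent. PCR copies are not independent molecules, so the intervals can be too narrow even for counting error. The intervals rest on approximate fragment numbers computed with the shorter of the canonical and the median transcript length of each gene.

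All 10 host genes were higher in both JG231 libraries than in DMSO. Their median level was 21.6 FPKM in DMSO, 78.4 with 2.5 μM and 76.4 with 5 μM. At 5 μM the median log2 change was 2.001, with the smallest change in SNHG16 (1.36) and the largest in SNHG12 (2.85). At 2.5 μM the median was 1.93, from 1.44 in SNHG16 to 2.95 in SNHG8. Over all genes with an FPKM above 1 in either library, the median change was -0.11 at 5 μM and -0.08 at 2.5 μM. The host genes were thus far above the median gene in each comparison. Both comparisons use the same DMSO library, so they are not independent of each other.

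The fold in the study's methods is 0.25 on the log2 scale. At 5 μM 10 of 10 host genes were higher by more than this, against 36.5% of 15765 genes, and 0 of 10 were lower, against 45.1%. At 2.5 μM 10 of 10 were higher, against 36.4% of 15746 genes, and 0 of 10 were lower, against 43.4%. A change over 1 on the log2 scale was reached by 10 of 10 host genes at 5 μM, where 14.7% of all genes reached it, and by 10 of 10 at 2.5 μM, where 12.9% did. Among long noncoding RNA (lncRNA) genes the share over 1 was 19.4% of 2056 at 5 μM and 16.6% of 2023 at 2.5 μM. All 10 host genes were above 1 FPKM in DMSO already. Of the 1720 lncRNA genes above 1 FPKM in DMSO, a group that leaves out genes rising from a lower level and was chosen after the values were seen, 6.28% were higher by over 1 at 5 μM and 4.71% at 2.5 μM.

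**Figure D1:**
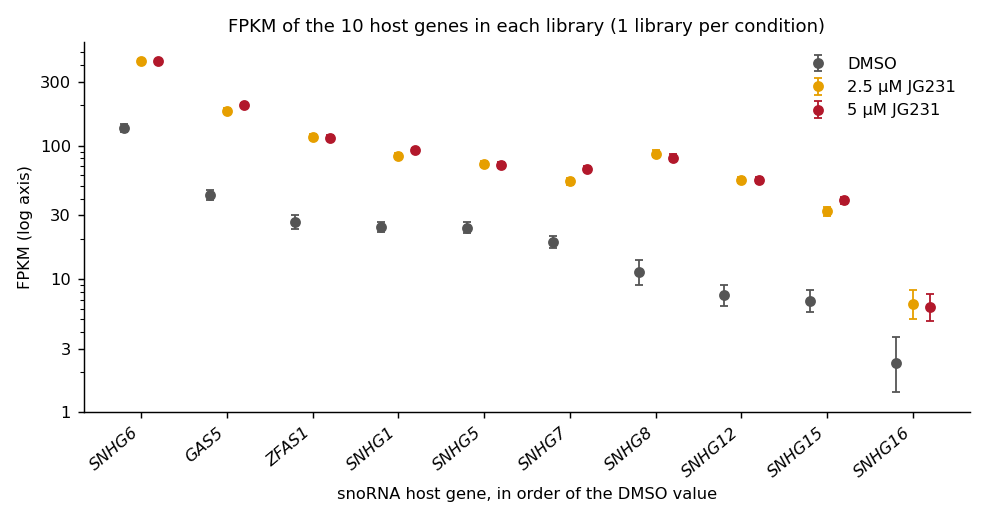
FPKM (log axis) of the 10 host genes in the DMSO (grey), 2.5 μM JG231 (orange) and 5 μM JG231 (red) libraries, 1 library each, with bars for the 95% counting interval. Each gene is higher in both JG231 libraries than in DMSO, from SNHG6 with 135 FPKM in DMSO down to SNHG16 with 2.34.

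GAS5, named for its accumulation in growth-arrested cells and host to box C/D snoRNAs, was the second most abundant of the 10 genes in every library. GAS5 (ENSG00000234741, chr1:173858559-173868882 on GRCh38, minus strand) had 42.8 FPKM in DMSO, 183 with 2.5 μM and 201 with 5 μM. Both JG231 values were more than 4 times the DMSO value. The log2 change of GAS5 was 2.09 at 2.5 μM (counting interval 1.96 to 2.24) and 2.23 at 5 μM (2.09 to 2.37). Among the 15765 genes compared at 5 μM, 642 had a larger change than GAS5.

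ZFAS1 is transcribed away from the start of ZNFX1 on the other strand and holds SNORD12, SNORD12B and SNORD12C. ZFAS1 (ENSG00000177410, chr20:49278178-49299600, plus strand) had 26.9 FPKM in DMSO, 116 with 2.5 μM and 115 with 5 μM, with log2 changes of 2.11 (1.93 to 2.30) and 2.09 (1.91 to 2.28). The JG231 values were nearly equal and both far from the control.

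SNHG1 holds several box C/D snoRNAs, among them SNORD22 and SNORD25 to SNORD28. SNHG1 (ENSG00000255717, chr11:62851978-62855953, minus strand) had 24.5 FPKM in DMSO, 83.9 with 2.5 μM and 92.5 with 5 μM. Its log2 changes were 1.77 (1.63 to 1.93) and 1.91 (1.77 to 2.06). SNHG5, host to SNORD50B, had nearly the same level as SNHG1 in DMSO. SNHG5 (ENSG00000203875, chr6:85650491-85678932, minus strand) had 24.3 FPKM in DMSO, 73.0 with 2.5 μM and 71.7 with 5 μM, and log2 changes of 1.58 (1.44 to 1.75) and 1.56 (1.41 to 1.72). The intervals of SNHG1 and SNHG5 overlapped in DMSO (22.3 to 26.8 FPKM and 22.0 to 26.7 FPKM) and were apart at 5 μM, where SNHG1 was the higher (89.0 to 96.1 FPKM against 68.5 to 74.9 FPKM).

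SNHG6, host to SNORD87, was the most abundant of the 10 genes in every library. SNHG6 (ENSG00000245910, chr8:66920561-66926398, minus strand) had 135 FPKM in DMSO, 432 with 2.5 μM and 428 with 5 μM. It gained the most FPKM, although its log2 changes of 1.67 (1.57 to 1.77) and 1.66 (1.56 to 1.76) were below the median of the 10. SNHG16, host to SNORD1A, SNORD1B and SNORD1C, was the least abundant. SNHG16 (ENSG00000163597, chr17:76557727-76670985, plus strand) had 2.34 FPKM in DMSO, 6.53 with 2.5 μM and 6.15 with 5 μM. Its DMSO value stood on about 19 fragments by the shorter length used for the intervals. By its full exon length (5776 bp) this was about 218 fragments. The intervals of its log2 changes of 1.44 (0.70 to 2.27) and 1.36 (0.64 to 2.19), which rest on the smaller numbers, reached below 1. The change of SNHG16 at 5 μM was under 1 when the libraries were rescaled to a common FPKM sum over genes that are neither mitochondrial nor small RNA genes, called the nuclear-sum rescaling here (0.98). With the length trend over all genes removed, an alternative chosen after the data were seen, it was 2.29, and SNHG16 was then no longer the smallest change, as it was in the values as deposited and after the nuclear-sum rescaling.

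The hosts of box H/ACA snoRNAs were lower in DMSO than most of the hosts above. SNHG8, host to SNORA24, had the largest change at 2.5 μM. SNHG8 (ENSG00000269893, chr4:118278703-118285316, plus strand) had 11.2 FPKM in DMSO, 87.1 with 2.5 μM and 81.2 with 5 μM. Its log2 changes were 2.95 (2.64 to 3.29) and 2.85 (2.54 to 3.19), 7.79-fold and 7.26-fold in FPKM. SNHG8 was the rank 7 gene of the 10 in DMSO and rank 4 at 2.5 μM, above SNHG1, SNHG5 and SNHG7.

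SNHG12 carries snoRNAs of both kinds, SNORA16A, SNORA44, SNORA61 and SNORD99. SNHG12 (ENSG00000197989, chr1:28578538-28583132, minus strand) had 7.55 FPKM in DMSO, 55.2 with 2.5 μM and 55.2 with 5 μM. Its log2 change was 2.85 at 2.5 μM (2.61 to 3.15) and 2.85 at 5 μM (2.62 to 3.14), and 468 of 15765 genes had a larger change at 5 μM. SNHG8 and SNHG12 differed by less than the width of their counting intervals in the size of these changes.

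SNHG15, host to SNORA9, and SNHG7, host to SNORA17A and SNORA17B, differed most between the JG231 libraries in the values as deposited. SNHG15 (ENSG00000232956, chr7:44983019-44986961, minus strand) had 6.85 FPKM in DMSO, 32.1 with 2.5 μM and 38.8 with 5 μM, with log2 changes of 2.21 (1.93 to 2.53) and 2.49 (2.21 to 2.80). SNHG7 (ENSG00000233016, chr9:136721366-136728184, minus strand) had 19.0 FPKM in DMSO, 53.9 with 2.5 μM and 67.2 with 5 μM, with log2 changes of 1.50 (1.33 to 1.68) and 1.82 (1.66 to 1.995). Both genes were highest in the 5 μM library.

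Grouped by the snoRNAs annotated inside them and found among the genes with expression values, the 5 genes with box C/D snoRNAs alone (ZFAS1, SNHG1, SNHG5, SNHG6 and SNHG16) had log2 changes from 1.36 to 2.09 at 5 μM, with a median of 1.66. GAS5 had no snoRNA found in this way, and with it the range reached 2.23 and the median 1.79. The 4 genes with box H/ACA snoRNAs (SNHG7, SNHG8, SNHG12 and SNHG15) had changes from 1.82 to 2.85, with a median of 2.67. At 2.5 μM the medians were 1.67 and 2.53. The groups overlapped at both doses, the grouping was made after the values were seen, and the difference was not tested. The box H/ACA hosts were also lower in DMSO, with a median of 9.36 FPKM against 24.5 FPKM.

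The order of the 10 genes by FPKM was the same at its top and bottom in every library, with SNHG6, GAS5 and ZFAS1 at ranks 1 to 3 and SNHG15 and SNHG16 at ranks 9 and 10. Between these, SNHG8 moved up. Summed over the 10 genes the level was 301 FPKM in DMSO, 1123 with 2.5 μM and 1156 with 5 μM. This was 3.98% of the FPKM of all lncRNA genes in DMSO, 18.4% at 2.5 μM and 18.7% at 5 μM, while the sum over all lncRNA genes was 7548, 6102 and 6194 FPKM. The host genes were therefore higher within a class whose summed level was lower. The median lncRNA changed by -1.04 at 5 μM and -1.01 at 2.5 μM. Of the 2056 lncRNA genes compared at 5 μM, 1720 passed 1 FPKM in DMSO and 1114 at 5 μM, and their lower quartile was -3.74. From 2.5 to 5 μM, 27.7% of 1528 lncRNA genes were higher by over 1, against 7.47% of all genes. Genes above 0 numbered 21862 in DMSO, 19352 at 2.5 μM and 17293 at 5 μM. How far the lncRNA median rests on genes near the floor was not tested.

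**Figure D2:**
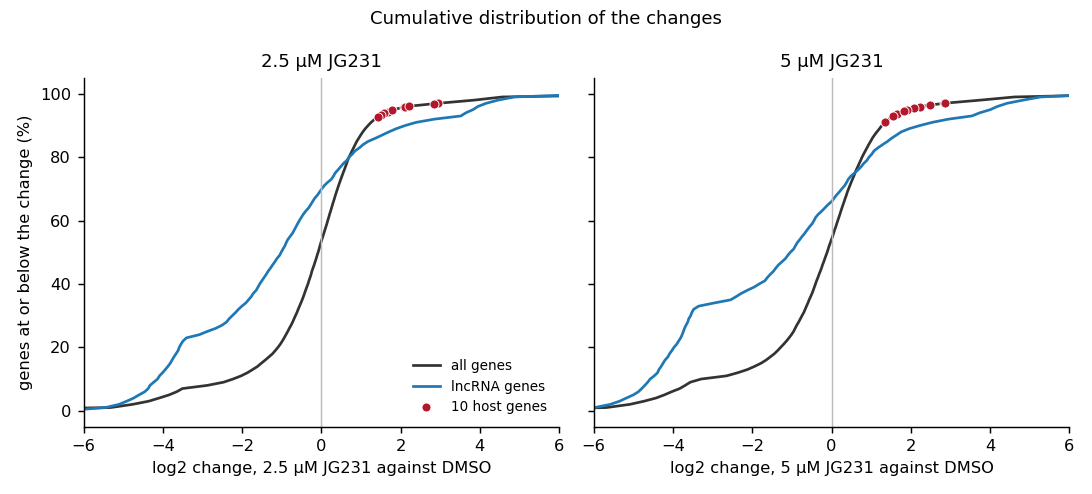
Cumulative share of genes (%) at or below each log2 change against DMSO at 2.5 μM (left) and 5 μM (right), for all genes above 1 FPKM in either library (black) and for lncRNA genes (blue), with the 10 host genes as red points on the black curve. The host genes lie at the upper end of all genes in both panels, while the median lncRNA lies at -1.01 and -1.04.

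Between the doses the host genes moved little. The median log2 change from 2.5 to 5 μM was -0.01, and it ranged from -0.10 in SNHG8 to 0.32 in SNHG7. Of the 10 genes, 2 passed 0.25 in either direction, SNHG7 with 0.32 (0.21 to 0.42) and SNHG15 with 0.27 (0.12 to 0.42), against 56.8% of 14197 genes. The counting interval excluded 0 in 4 genes, which besides SNHG7 and SNHG15 were GAS5 (0.06 to 0.21) and SNHG1 (0.06 to 0.23). When the libraries were rescaled to a common FPKM sum, SNHG7 had 0.14 and SNHG15 0.09, and the median was -0.19. In the same values SNHG8 (-0.28) and SNHG16 (-0.26) passed 0.25 downward, and GAS5 and SNHG1 turned to -0.05 and -0.04. Which genes differed between the doses, and in which direction, thus depends on the scaling. The counting intervals leave out the variation between cultures, for which there was no measurement.

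The FPKM scale itself shifted between libraries. A common FPKM sum over all genes moved the median of all genes at 5 μM from -0.11 to -0.25. The nuclear-sum rescaling moved the median of all genes to -0.51 at 5 μM and -0.38 at 2.5 μM, and that of the host genes to 1.62 and 1.64. Relative to the median gene, the host genes were 2.13 and 2.03 higher in these values and 2.11 and 2.01 higher in the values as deposited. The same rescaling left 27.9% of the genes past 0.25 on the higher side at 5 μM and 30.8% at 2.5 μM, against 44.7% and 45.6% in the values as deposited. Of all genes compared, 23.1% were then higher by over 0.25 at 5 μM and 24.8% at 2.5 μM, against 36.5% and 36.4% as deposited. The host genes stayed on the higher side of 0.25 in 10 of 10 cases at both doses.

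Change also varied with transcript length over all genes. At 5 μM the median log2 change was -0.42 for canonical transcripts up to 1000 bp, 0.27 from 1000 to 2000 bp, 0.04 from 2000 to 4000 bp and -0.36 above 4000 bp. The canonical transcripts of the host genes ran from 498 bp in SNHG16 to 6166 bp in SNHG8. SNHG8 and ZFAS1 belong to the class above 4000 bp, in which 4.83% of genes were higher by over 1 at 5 μM and 5.62% at 2.5 μM. GAS5 and SNHG16 belong to the class up to 1000 bp, where these shares were 25.7% and 23.0%. With the length trend removed, the median of the host genes was 2.22 at 5 μM and 2.06 at 2.5 μM, and the smallest change at 5 μM was 1.25 in SNHG5. Canonical and median transcript lengths differ widely in some of these genes (6166 and 489 bp in SNHG8, 4526 and 640 bp in ZFAS1), and which transcripts were present was not measured.

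**Figure D3:**
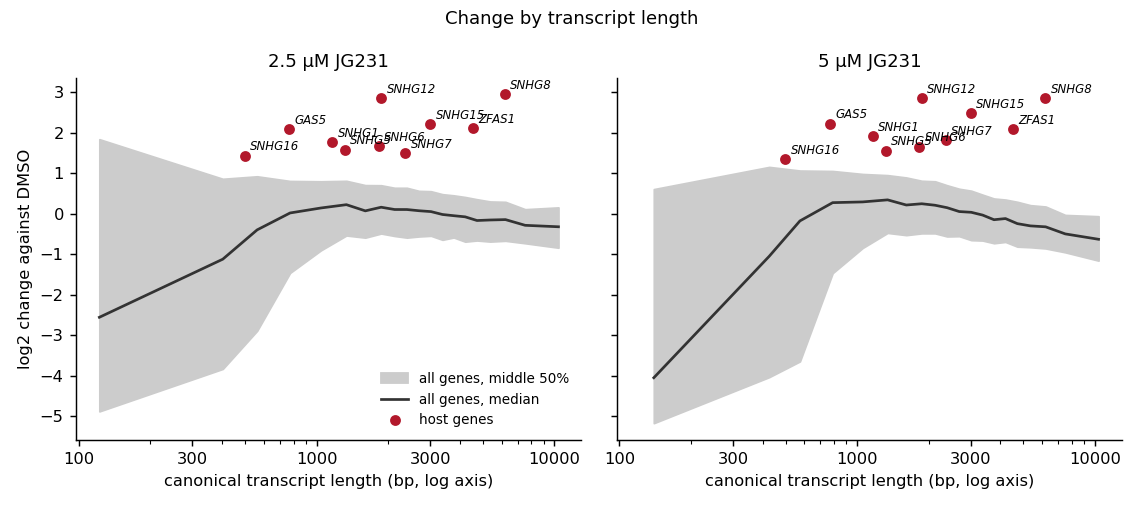
Log2 change against DMSO by canonical transcript length (bp, log axis) at 2.5 μM (left) and 5 μM (right). The line is the median and the grey band the middle 50% of all genes above 1 FPKM in either library, in 20 bins of equal size, and the labelled red points are the 10 host genes, which lie above the band from 498 bp (SNHG16) to 6166 bp (SNHG8).

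The start sites of 8 host genes were matched in the promoter table of RefSeq (GRCh38.p14), and SNHG6 and SNHG15 had no entry. The windows are shown because these genes moved together and because the letters at the start define a TOP transcript. Each window runs 5′ to 3′ on the transcribed strand from 40 bases before the start through 20 bases from it. Capitals mark the run of pyrimidines that opens with a C at the start, and TATAA where a window holds it between 40 and 15 bases before the start.
ZFAS1: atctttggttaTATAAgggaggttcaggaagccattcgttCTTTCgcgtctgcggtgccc
SNHG5: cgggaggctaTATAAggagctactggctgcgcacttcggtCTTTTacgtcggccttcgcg
SNHG12: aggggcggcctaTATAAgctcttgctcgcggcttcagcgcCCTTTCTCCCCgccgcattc
SNHG7: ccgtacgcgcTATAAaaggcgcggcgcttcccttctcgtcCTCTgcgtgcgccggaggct
SNHG1: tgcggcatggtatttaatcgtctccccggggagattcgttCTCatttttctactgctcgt
SNHG8: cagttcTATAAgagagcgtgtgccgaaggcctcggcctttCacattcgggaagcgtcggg
GAS5: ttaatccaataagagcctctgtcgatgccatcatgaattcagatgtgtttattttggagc
SNHG16: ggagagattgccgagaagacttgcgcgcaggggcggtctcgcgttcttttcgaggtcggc

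These windows lie at chr20:49278602-49278661 (ZFAS1, plus strand), chr6:85678714-85678773 (SNHG5, minus), chr1:28581854-28581913 (SNHG12, minus), chr9:136728165-136728224 (SNHG7, minus), chr11:62855866-62855925 (SNHG1, minus), chr4:118278722-118278781 (SNHG8, plus), chr1:173869026-173869085 (GAS5, minus) and chr17:76557724-76557783 (SNHG16, plus). A TOP start, a C followed by at least 4 C or T, stood at the annotated start of 3 of the 8 genes, ZFAS1, SNHG5 and SNHG12, and at 4.07% of 35114 windows in all. SNHG12 had the longest run, 11 pyrimidines. SNHG7 opened with 4 pyrimidines, SNHG1 with 3 and SNHG8 with 1, while the windows of GAS5 and SNHG16 opened with A and G. The RefSeq start of GAS5 lay 163 bases upstream of the GENCODE gene, and that of SNHG12 lay 1259 bases inside it, so the letters depend on which start is taken.

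The letters TATAA on the transcribed strand, a motif chosen after the windows were seen, occurred between 40 and 15 bases before the start in 5 of the 8 genes (ZFAS1, SNHG5, SNHG7, SNHG8 and SNHG12) and in 3.91% of all windows. In the full window of 300 bases, CACGTG, the E-box of the MYC family, which reads the same on both strands, occurred in 1 of 8 genes (SNHG7) and in 7.26% of all windows. CCAAT on either strand occurred in 2 of 8 (GAS5 and SNHG5) and in 34.6% of all windows. The 3 genes with a TOP start had log2 changes at 5 μM of 2.09, 1.56 and 2.85 for ZFAS1, SNHG5 and SNHG12, and the 5 matched genes without one had 2.85 (SNHG8), 2.23 (GAS5), 1.91 (SNHG1), 1.82 (SNHG7) and 1.36 (SNHG16). A match in letters is a description and no binding or initiation was measured.

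The hosted snoRNAs themselves were barely recorded in these libraries. Of 26 snoRNA genes annotated inside 9 of the hosts on the same strand, 24 were listed at 0 in all 3 libraries. SNORD99, in SNHG12, had 7.56 FPKM in DMSO, 7.30 with 2.5 μM and 8.42 with 5 μM, on about 9, 11 and 15 fragments, while its host went from 7.55 to 55.2 FPKM. SNORD12B, in ZFAS1, had 4.10 FPKM in DMSO and 12.9 at 2.5 μM and was listed at 0 at 5 μM, on about 6, 24 and 0 fragments. Mature snoRNAs are short and have no poly(A) tail, and these were mRNA libraries, so the values say little of the level of mature snoRNAs. The snoRNAs of GAS5 were not analysed here.

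Genes on the other strand that overlap a host, or start within 1 kb of its start, were examined as well. Of 15 such genes, 8 were over 1 FPKM in some library, of which 6 were lower and 2 higher by over 0.25 at each dose. Of all genes 45.1% were lower and 36.5% higher at 5 μM, and 43.4% and 36.4% at 2.5 μM. GAS5-AS1 had 4.75 FPKM in DMSO, 0.35 with 2.5 μM and 1.44 with 5 μM, and ZBTB37, which starts 800 bp from GAS5, had log2 changes of -2.05 and -1.52. ZNFX1, whose start lies 248 bp from that of ZFAS1, had 5.82, 4.16 and 3.60 FPKM in the same order. DIPK1B, which overlaps SNHG7, had 23.9 FPKM in DMSO and 8.51 and 8.53 at 2.5 and 5 μM, and PRSS12, which overlaps SNHG8, had 2.76, 1.80 and 0.41. The partners of these hosts were lower in both JG231 libraries. SLC3A2, a subunit of amino acid transporters, starts 51 bp from SNHG1 without overlapping it and had 38.0 FPKM in DMSO, 430 with 2.5 μM and 487 with 5 μM. TRNAU1AP, which overlaps SNHG12, had 7.86, 16.1 and 13.1. The sample records describe strand-specific libraries, but no source says if the counting step took strand into account. Reads of overlapping genes could then have been assigned to either partner, and values of the hosts with overlapping partners are uncertain to that extent. Among the genes with expression values, none on the other strand overlapped SNHG1, SNHG5 or SNHG15, which had log2 changes of 1.91, 1.56 and 2.49 at 5 μM.

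Other noncoding snoRNA hosts were compared next. Of 22 listed, 14 averaged 1 FPKM or more, and 10 of 14 were higher and 3 of 14 lower by over 0.25 at 5 μM (11 and 2 at 2.5 μM), with median log2 changes of 1.05 at 5 μM and 1.38 at 2.5 μM. Of all genes 36.5% were higher and 45.1% lower at 5 μM, and 36.4% and 43.4% at 2.5 μM, the shares beside which the counts of this and the next lists stand. The mean includes the JG231 libraries, so it admits genes low in DMSO such as SNHG21 (0.83, 2.28 and 1.78 FPKM) and SNHG9. Over all 22, 13 were higher and 5 lower at 5 μM (12 and 6 at 2.5 μM), with medians of 0.57 and 0.36. These medians include SNHG18, SNHG28 and MEG8, listed at 0 in every library and so entered as a change of 0. They also include SNHG20, SNHG22, SNHG26 and SNHG31, on about 7, 3, 5 and 8 fragments in DMSO. The nuclear-sum rescaling took the medians of the 14 to 0.67 at 5 μM and 1.10 at 2.5 μM. SNHG17 had 4.97 FPKM in DMSO, 37.9 with 2.5 μM and 42.0 with 5 μM, a change of 3.05 at 5 μM that is above each of the 10 host genes. EPB41L4A-AS1 and SNHG11 followed with 2.29 and 2.18, and SNHG4 went the other way, from 2.66 FPKM in DMSO to 0.64 and 0.33. Higher values were thus seen in further hosts but not in every one.

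Long noncoding RNAs that are not snoRNA hosts were compared in the same way. Of 12 listed, 7 reached a mean FPKM of 1, and 6 of 7 were lower by over 0.25 at each dose, where 63% of all lncRNA genes were lower at 5 μM and 65.2% at 2.5 μM (75.3% and 76.7% of those over 1 FPKM in DMSO), with medians of -1.13 at 5 μM and -0.67 at 2.5 μM. Over all 12, 8 were lower and 4 higher by over 0.25 at each dose, with medians of -0.55 at 5 μM and -0.43 at 2.5 μM. The shares of all lncRNA genes are for genes over 1 FPKM in either library, so these counts are not on the same footing. KCNQ1OT1, JPX, LINC-PINT and CYTOR were under 1 FPKM in every library. In DMSO they had about 0, 3, 2 and 2 fragments. The median of the 7 at 5 μM was -0.56 with the length trend removed and -1.51 with the nuclear-sum rescaling. At 2.5 μM it was -0.44 with a pseudocount of 1 and -0.93 with that rescaling, so its size depends on the processing. MALAT1, a nuclear RNA, had 280.3 FPKM in DMSO, 53.7 with 2.5 μM and 54.1 with 5 μM. TUG1 had log2 changes of -2.09 at 5 μM and -1.47 at 2.5 μM, and NORAD -1.65 and -1.35. The mean depends on the change itself: MIR22HG (0.29, 1.28 and 1.78 FPKM), the exception among the 7, reached it through the JG231 libraries, and FTX (1.92, 0.46 and 0.28 FPKM) did not reach it, and of the 5 below that mean JPX, LINC-PINT and CYTOR were also higher at both doses.

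The mRNAs of the decay machinery showed smaller and mixed changes, to be read beside the 36.5% of all genes higher and 45.1% lower by over 0.25 at 5 μM. Of 15 nonsense-mediated decay factors, 5 were higher and 5 lower at 5 μM, with a median of -0.07, and 5 were higher and 6 lower at 2.5 μM, with a median of 0.06, values whose sign turned under rescaling (-0.23 at 2.5 μM by the nuclear sum) and centring on the median gene (0.04 at 5 μM). SMG1, the kinase that phosphorylates UPF1, had 6.07 FPKM in DMSO, 3.21 with 2.5 μM and 1.94 with 5 μM, and SMG5 and SMG6 had log2 changes of -0.72 and -0.63 at 5 μM, whereas SMG9 had 0.81. Of 6 exon junction complex genes, which mark spliced junctions for decay, 4 were higher and 0 lower at 5 μM (5 and 1 at 2.5 μM), with medians of 0.53 and 0.57. MAGOH had 1.06, RNPS1 0.78, CASC3 0.54 and RBM8A -0.24 at 5 μM. With the nuclear-sum rescaling the medians were 0.15 at 5 μM and 0.28 at 2.5 μM. Of 15 decapping and 5′ decay genes, 10 were higher and 4 lower at 5 μM (9 and 2 at 2.5 μM), with medians of 0.46 and 0.38. LSM2 had 0.94, the exonuclease XRN1 0.93, PATL1 0.76 and DCP1B -0.70 at 5 μM. The nuclear-sum rescaling took these medians to 0.08 and 0.10, so their size depends on the scaling.

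Of 10 stress mRNAs known as targets of nonsense-mediated decay, 8 were higher and 0 lower at each dose (all genes: 36.5% and 45.1% at 5 μM, 36.4% and 43.4% at 2.5 μM), with medians of 1.96 at 5 μM and 1.98 at 2.5 μM, close to those of the host genes. DDIT3, ATF3 and GADD45A, which are also induced at transcription under stress, had the largest changes at 5 μM, 3.996, 3.89 and 3.02. The list holds genes with more than 1 kind of control, and which of these moved was not tested.

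The mRNAs of proteins that package snoRNAs are given beside the 36.5% of all genes higher at 5 μM and 36.4% at 2.5 μM, and 45.1% and 43.4% lower. Of 8 genes for snoRNP proteins 7 were higher and 0 lower at 5 μM (4 and 0 at 2.5 μM), with medians of 0.66 and 0.47, so the count at 2.5 μM was not far from the share of all genes. NOP10, of the box H/ACA particle, had 1.51, SNU13, which binds box C/D snoRNAs, 1.18, and FBL, the methyltransferase of the box C/D particle, 1.16 at 5 μM. Of 10 snoRNP assembly genes 6 were higher and 2 lower at 5 μM (7 and 3 at 2.5 μM), with medians of 0.52 and 0.64, led by NUFIP1 (1.70), NAF1 (1.41) and ZNHIT3 (1.17), while SHQ1 had -0.40. With the nuclear-sum rescaling the medians of the proteins were 0.28 at 5 μM and 0.18 at 2.5 μM and those of the assembly genes 0.14 and 0.36.

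Of the TOP mRNAs other than those of ribosomal proteins, EEF1G was listed at 0 in all 3 libraries although it encodes a common elongation factor subunit, so a 0 in these values need not mean absence. The other TOP mRNAs were 15 of 19 higher and 1 of 19 lower at 5 μM (15 and 0 at 2.5 μM), against 36.5% of all genes higher at 5 μM and 36.4% at 2.5 μM, with medians of 0.67 and 0.65, which the nuclear-sum rescaling took to 0.29 and 0.36. RACK1, a ribosome-associated scaffold, had 1.31, VIM 1.31 and EIF3F 1.18 at 5 μM, and NAP1L1 had -0.36. Of 16 protein-coding snoRNA hosts 10 were higher and 3 lower at 5 μM (8 and 4 at 2.5 μM), with medians of 0.41 and 0.24, and with the nuclear-sum rescaling these were 0.03 and -0.05. The counts of these hosts were nearer to the shares of all genes than those of the TOP mRNAs. TAF1D, HSPA9 and PPAN led with 1.84, 0.93 and 0.88 at 5 μM, and PRRC2A had -0.72. The medians of the protein-coding hosts were thus below those of the 10 noncoding hosts, a difference that was not tested.

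**Figure D4:**
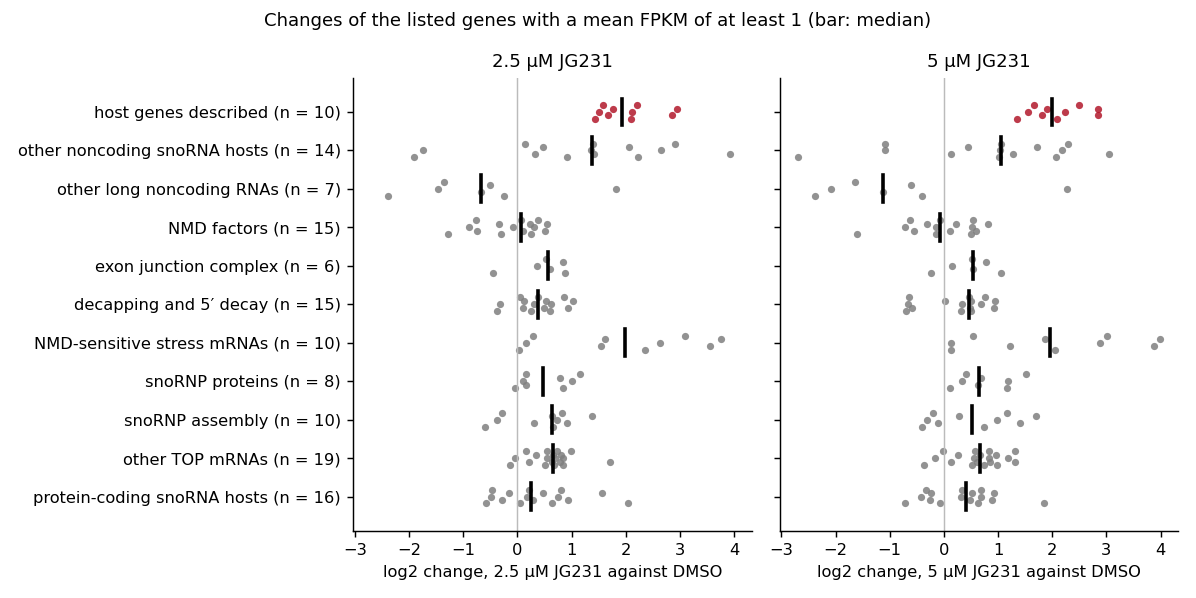
Log2 change against DMSO at 2.5 μM (left) and 5 μM (right) of each listed gene averaging 1 FPKM or more, as points, by list, with a black bar at the list's median; the 10 host genes are red. The host genes (medians 1.93 and 2.001) and the stress mRNAs (1.98 and 1.96) have the highest medians, and the other long noncoding RNAs the lowest (-0.67 and -1.13).

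The genes outside all lists whose pair of changes lay nearest to the medians of the host genes, by Euclidean distance over these 2 values from 3 libraries, were TNFRSF10B, WARS1, AMOTL2, ARHGEF2 and TSSC4, all protein-coding. TNFRSF10B had 7.97 FPKM in DMSO, 30.5 with 2.5 μM and 31.2 with 5 μM, at a distance of 0.045. Of 7475 genes averaging 5 FPKM or more, 11 lay within 0.1. The mean includes the JG231 libraries, through which AMOTL2 reached it (2.18 FPKM in DMSO, 8.79 with 2.5 μM and 9.38 with 5 μM). These genes were selected for lying near the medians, so their closeness follows from the selection. No expected number was computed, and a shared pattern was not tested.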

How the data were processed

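RNA-seq of 3 H660 libraries, 1 per condition (DMSO, 2.5 μM and 5 μM JG231), was used. The authors deposited gene-level FPKM for 58735 genes. The methods of the paper name HISAT and StringTie, within what is also called a Top Hat-Cufflinks pipeline, whereas the submitters' processing notes name HISAT2, featureCounts, GRCh38 and hg38, with no version. The RNA input also differs between the paper and the sample records, and the annotation release is not stated. All 3 columns of values were matched to libraries by name.

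Identifiers were looked up in GENCODE release 44 (58207 of 58735 found) for biotype, coordinates and length. The value of 1 fragment was read from FPKM times exon length in single-transcript genes, and was 62.2, 49.1 and 41.6 FPKM bp in DMSO, at 2.5 μM and at 5 μM. Under 50 fragments, 88.2% of 4746, 85.8% of 3261 and 84.2% of 2034 genes lay within 0.05 fragments of a whole number. No count model was applied, since FPKM are not counts. Ratio intervals are Clopper-Pearson and level intervals Poisson, at 95%. The background was every gene past 1 FPKM in at least 1 of the libraries compared.

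The members and lists were chosen with earlier results of these data known. Named genes were all members, in each list up to 3 genes averaging 1 FPKM or more with the largest change at 5 μM in the direction of the median with the same sign at both doses, the gene with the largest change the other way, opposite-strand neighbours, hosted snoRNAs and the 5 genes of nearest pattern. Alternatives were pseudocounts of 1 and 0.01, rescaling to a common FPKM sum over all genes or over those that are neither mitochondrial nor small RNA genes (the nuclear sum), centring on the median gene, members averaging 5 FPKM or more, no background filter and, added after the data were seen, removal of the length trend by lowess (fraction 0.3). Code was tested on simulated data. Analyses ran in Python 3.11.15 with pandas 2.3.3, numpy 2.4.6, statsmodels 0.14.6 for lowess, scipy 1.17.1 for intervals and matplotlib 3.10.9 for plots.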

Additional observations from a re-analysis of the deposited data

Results flagged for a closer look

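In 3 genes averaging 1 FPKM or more in the lists compared with the host genes, the 2.5 μM and 5 μM libraries lay on opposite sides of the shared DMSO library by more than 0.25 on the log2 scale. None of the 10 host genes did so. Differences between the doses are given here as the change at 2.5 μM minus that at 5 μM, the reverse of the order used above. SNHG9, a noncoding snoRNA host, had 0.11 FPKM in DMSO and 3.12 at 2.5 μM and was listed at 0 at 5 μM, a difference between the doses of 5.01 on the log2 scale, on about 1, 22 and 0 fragments. SNHG9 reached that mean through the 2.5 μM library alone, and its lower side at 5 μM is 1 fragment against 0. The size of that difference, and whether SNHG9 passes 0.25 at 5 μM, are thus set by the pseudocount. SMG9, a nonsense-mediated decay factor, had 3.40, 2.72 and 6.03 FPKM, a difference of -1.12. DCP1B, a decapping factor, had 1.59, 1.99 and 0.94 FPKM, a difference of 1.01. At 2.5 μM SMG9 had -0.31 and DCP1B 0.31 as deposited. SMG9 (-0.23) came within 0.25 of DMSO after centring on the median gene and DCP1B (0.03) after the nuclear-sum rescaling. At FPKM this low, whether either gene passes 0.25 at 2.5 μM also depends on the pseudocount. Of listed genes below that mean, SNHG20 and SNHG31 also lay on opposite sides. With 1 library per dose these differences were not tested.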

How the results depend on the processing

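All 10 host genes were higher than DMSO by over 0.25 at both doses under each of the alternatives run, and at least 9 of 10 by over 1, the exception being SNHG16 at 5 μM, 1.36 as deposited, with 0.98 after the nuclear-sum rescaling, which leaves out mitochondrial and small RNA genes. That rescaling moved the median of the host genes to 1.62 at 5 μM and 1.64 at 2.5 μM, by its construction, since it lowered every gene. Removing the length trend, chosen after seeing the data, moved the median at 5 μM to 2.22 and SNHG16 to 2.29. The median change from 2.5 to 5 μM was -0.19 after rescaling to a common FPKM sum and turned slightly above 0 (0.0098) after centring, so its direction depends on the scaling. Of 120 changes of single host genes against DMSO under the alternatives that can alter them, 31 moved by more than the median half-width of a counting interval. The shifts of scale were smaller than the changes, so that no sign turned says little. All 10 genes passed a mean FPKM of 5, SNHG16 only through the JG231 libraries. The share of all genes higher by over 1 at 5 μM was 14.7% of 15765 as deposited, 8.05% of 15483 after the nuclear-sum rescaling and 13.5% of 22838 without a background filter. Counting error was widest for SNHG16, with about 19 fragments in DMSO by the shorter transcript length and about 218 by its full exon length. Variation between cultures was not measured. No paired analysis was possible because each group has 1 library.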
